A study of Sus scrofa with 12 samples.

Results

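The comparison described here is that of paced with control pigs over both regions of the left ventricle that were sampled, the free wall and the septum. All 12 of the 12 arrays entered it, 6 from paced and 6 from control pigs, in 4 groups of 3. For each gene the paced minus control difference was taken within the free wall and within the septum, and the pacing difference of both regions is the mean of these 2 values. Genes were then described by whether the regional differences had the same sign, and by whether all 6 paced arrays lay above or below all 6 control arrays. The comparison covered 10007 genes, each read by 1 probe set.

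The animals were female pigs aged 13 months, and the series enrolled 12, 6 per treatment. In the paced group atrioventricular block was made with an ablation catheter, and a pacemaker in VDD mode was implanted, a mode in which each sensed atrial beat is followed by a ventricular stimulus. Control pigs had a sham procedure, and per the labels all pigs, controls included, carried a ventricular lead on the septum of the right ventricle and an atrial lead in the right atrial appendage. Tissue from the free wall and the septum, at the level of the papillary muscles, was taken after 6 months. Every paced pig had both the block and the pacemaker, so that the effects of the block and of pacing cannot be told apart. The labels say that paired tissues were obtained but do not tie arrays to animals. Free wall and septum arrays may therefore come from the same pigs, and n counts arrays, not pigs. The p-values reflect only the array-to-array spread, which may be partly technical. They may be too small if arrays share pigs.

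In a heart paced from the right ventricle the electrical wave does not use the fast conduction system and spreads from muscle cell to muscle cell. The septum near the lead is then activated early and the free wall late, so that the regions shorten out of step and carry unequal loads. Working heart muscle takes most of its energy from fatty acids, keeps its rhythm through a balance of inward and outward ion currents, and answers hormones from nerves, vessels and neighbouring cells. A change seen in both regions is thus one seen in muscle near to and far from the lead.

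Signals are RMA values on the log2 scale, on which a difference of 1 is a doubling. The median signal of an array lay between 4.3 and 4.45, and the lower quartile between 2.91 and 3.13. The deposited values carry no detection calls, so a low signal may be background, and the fold of a gene that is low in 1 group may then be a lower bound. MYH7, the main heavy chain of myosin in pig ventricle, lay between 12.4 and 12.59 on all 12 arrays, and marks the samples as ventricular muscle. Free wall paced array 2 stood apart, with a first principal component of -45.3 against -19.2 to 22.3 for the rest. Both control arrays numbered 1 stood apart on the second component, at 27.2 and 24.3, where the others lay between -16.3 and 7.8.

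Few features passed the test across all probe sets. With limma and Benjamini-Hochberg adjustment over 20667 probe sets, 4 were called at an adjusted p under 0.05, which is 0.0194% of those tested. Of these, 3 were lower in paced pigs (0.0145%) and 1 was higher (0.00484%). They were the genes PDZD9 and CCK and a pair of probe sets for which no gene is listed, 15342515 and 15275608. The 2 named genes make up 0.02% of the 10007 genes. With the values of both regions averaged by array number within a treatment, which leaves 3 values against 3, only 15342515 passed.

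Probe set 15342515 had the largest difference. Its signals in control free wall were 6.65, 6.57 and 6.73, and in control septum 6.73, 6.88 and 6.68. In paced free wall they were 3.65, 4.57 and 2.7, and in paced septum 3.12, 3.22 and 3.01. The control arrays were thus close together, the paced septum arrays were near the lower quartile of the arrays, the paced free wall arrays were spread, and the groups did not overlap. The probe set fell by 3.33 on the log2 scale (SE 0.24, n = 6 per group, limma adjusted p = 0.000214). This probe set remained called when any single array was left out (adjusted p from 2.69e-06 to 0.00189) and when the regions were averaged (adjusted p = 0.0126).

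PDZD9 encodes a protein with a PDZ domain, a fold that binds the tails of other proteins. Its signals in control free wall were 4.6, 4.79 and 5.1, and in control septum 4.1, 4.3 and 4.65. In paced free wall they were 3.75, 3.76 and 3.73, and in paced septum 3.38, 3.26 and 3.43. Every paced array was below every control array, and within each treatment the free wall had the higher mean. The paced septum signals were a little above the lower quartile of the arrays, so the fold may be a lower bound. PDZD9 fell by 1.04 on the log2 scale (SE 0.11, n = 6 per group, limma adjusted p = 0.00911), a 2.05-fold difference that was close to equal in the free wall (-1.08) and the septum (-0.99). It remained called without any single array (adjusted p from 0.00662 to 0.0491), but not with the regions averaged (adjusted p = 0.217).

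CCK encodes cholecystokinin, a peptide hormone of gut and brain that heart muscle cells also make. Its signals in control free wall were 10.22, 10.73 and 10.88, and in control septum 10.2, 10.81 and 10.86. In paced free wall they were 9.85, 10.16 and 10.19, and in paced septum 9.01, 8.66 and 8.45. The groups were separated by only 0.01, between the highest paced free wall array and the lowest control septum array, and the paced septum lay far below the rest. CCK fell by 1.23 on the log2 scale over both regions (SE 0.16, n = 6 per group, limma adjusted p = 0.0387), a 2.35-fold difference. The difference was -0.54 in the free wall and -1.92 in the septum, and these differed from each other by -1.37 (SE 0.32, limma unadjusted p = 0.001, adjusted p = 0.999). The call of CCK ended with the regions averaged (adjusted p = 0.217), with the array number as a fixed block (0.0712), in an additive fit of treatment and region (0.142), and without any 1 of 9 arrays, namely control 2 and 3 and paced 1, 2 and 3 of the free wall, and control 2 and 3 and paced 2 and 3 of the septum (adjusted p from 0.0556 to 0.131).

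Probe set 15275608 was the only one that rose. Its signals in control free wall were 4.15, 4.13 and 4.27, and in control septum 3.93, 3.49 and 4.63. In paced free wall they were 5.61, 6.76 and 5.66, and in paced septum 5.63, 5.36 and 5.59. Of the 6 paced arrays 5 lay close together and free wall paced array 2 was higher, and the groups did not overlap. It rose by 1.67 on the log2 scale (SE 0.22, n = 6 per group, limma adjusted p = 0.0387), a 3.18-fold difference. The call ended with the regions averaged (adjusted p = 0.157), with the array number as a fixed block (0.139), without both control arrays numbered 1 (adjusted p = 0.299), and without any 1 of control 1, 2 and 3 and paced 3 of the free wall, and control 1 and 2 and paced 1, 2 and 3 of the septum (adjusted p from 0.0624 to 0.155).

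**Figure D1:**
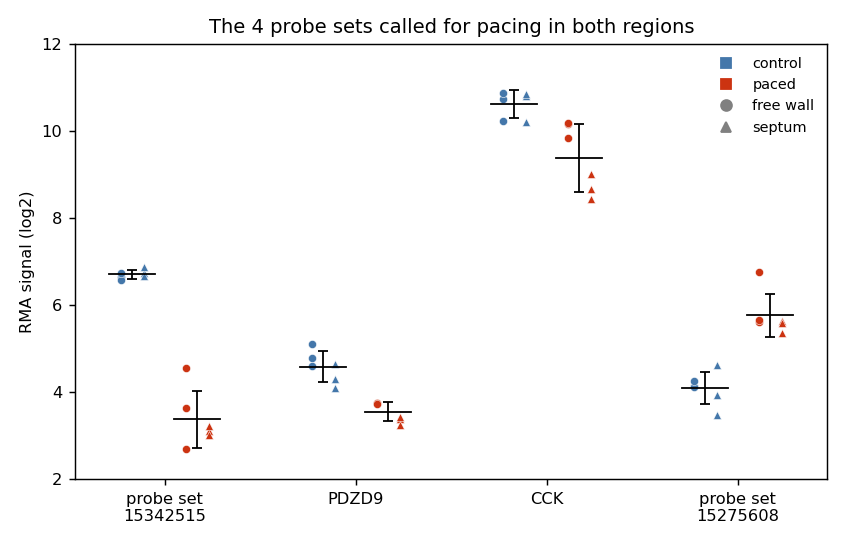
RMA signal (log2, vertical axis) of the 4 called probe sets on each of the 12 arrays, with circles for free wall, triangles for septum, blue for control and red for paced, and bars for the mean and SD of the 6 arrays of a treatment. Probe set 15342515 lies between 6.57 and 6.88 in control arrays and between 2.7 and 4.57 in paced arrays, and the gap between the groups is narrowest for CCK, at 0.01.

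Across all genes the pacing difference was small. Its median size was 0.08 on the log2 scale, against a median SE of 0.11, and the median signed difference was 0.002. Before adjustment 1423 probe sets (6.89%) and 709 genes (7.09%) had a limma p under 0.05, and of these genes 327 were higher (3.27%) and 382 lower (3.82%) in paced pigs. Of all 10007 genes 5012 (50.1%) lay above 0 and 4953 (49.5%) below. A difference over 1 was seen in 21 genes, 9 higher and 12 lower. No probe set was called for a difference between the regional effects (0%), where 569 probe sets (2.75%) and 247 genes (2.47%) had an unadjusted p under 0.05 and the smallest adjusted p was 0.999.

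The regions shared a sign in 5478 genes, which is 54.7% of those tested. Of these, 2799 were above 0 in both regions (28%) and 2679 below (26.8%). The share lay between 49.5% when free wall paced array 3 was left out and 63.3% when free wall paced array 2 was. All 6 paced arrays lay above all 6 control arrays in 26 genes (0.26%), and below them in 37 genes (0.37%). Of these 63 genes (0.63%) only PDZD9 and CCK were called, and the adjusted p of the 63 ran from 0.00911 to 0.976. The median difference was 0.29 among the 26 and -0.4 among the 37, and the smallest were 0.05 and -0.18.

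These counts grew when arrays were left out, since fewer arrays overlap less often. Without free wall paced array 2 the groups did not overlap in 85 genes on the higher side and 64 on the lower, and without both control arrays numbered 1 in 45 and 77. On the higher side the count also passed 1.5 times that of all 12 arrays without control 3 (50) or paced 1 (50) of the free wall, and without control 2 (40), paced 2 (43) or paced 3 (43) of the septum. On the lower side it did so without control 3 (56) or paced 1 (59) of the free wall, and without control 3 (56) or paced 1 (61) of the septum. Among probe sets 107 did not overlap (0.518%), 48 higher (0.232%) and 59 lower (0.285%), and 41 of them, 21 higher and 20 lower, were among the 9935 with no gene of their own.

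**Figure D2:**
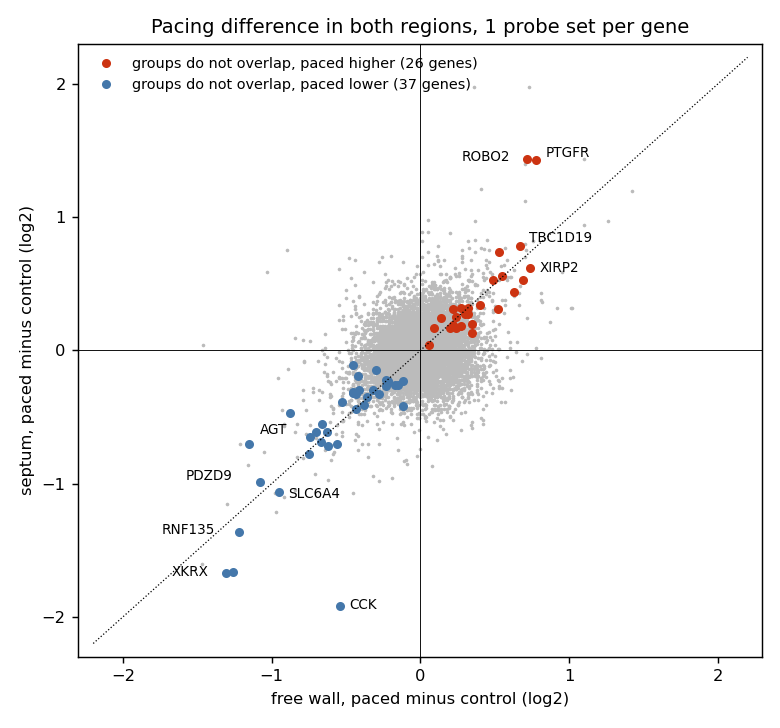
Pacing difference of each of 10007 genes in the free wall (horizontal axis) against the septum (vertical axis), both as paced minus control on the log2 scale, with the dotted line marking equal differences. Red points are the 26 genes and blue points the 37 genes whose paced and control arrays do not overlap, and CCK lies farthest from the line among them, at -0.54 and -1.92.

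The genes below did not pass the adjusted test unless so stated, and their values describe these arrays. Tissue was measured in bulk, so that fewer cells of a type and less RNA per cell cannot be told apart.

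Several genes of hormones, their receptors and transporters were among those without overlap. AGT, which encodes angiotensinogen, the precursor of the angiotensins, read 8.54, 8.92 and 9.08 in control free wall and 8.65, 8.48 and 9.16 in control septum. In paced pigs AGT read 8.42, 8.06 and 7.85 in the free wall and 8.2, 8.44 and 7.7 in the septum. The highest paced array was 0.04 below the lowest control array, and the regional differences were close, at -0.74 in the free wall and -0.65 in the septum. The mean difference was -0.69 (SE 0.17, limma adjusted p = 0.342). AGT was the member with the smallest p among 18 tested genes of renin-angiotensin and adrenergic signalling, of which none was called, 8 lay above 0 and 10 below, and the median was -0.02. In the same list GRK5, a kinase that desensitises beta-adrenergic receptors, was higher without overlap, from 7.02 to 7.24 in control and from 7.25 to 7.57 in paced arrays (difference 0.24, SE 0.08). GRK2, the other main receptor kinase of the heart, stood at 0.13 (SE 0.07). The alpha-1B receptor ADRA1B was at -0.22 (SE 0.11), but its regional differences had opposite signs, 0.09 in the free wall and -0.54 in the septum.

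SLC6A4, the serotonin transporter, read 6.67, 6.64 and 6.52 in control free wall and 7.23, 6.1 and 6.4 in control septum. In paced pigs SLC6A4 read 6.04, 5.25 and 5.68 in the free wall and 5.42, 5.78 and 5.36 in the septum. The groups were 0.06 apart and the regions alike, at -0.95 and -1.06, with a mean of -1.0 (SE 0.19, limma adjusted p = 0.153). Platelets carry much of this transporter. The other 3 platelet markers tested, ITGA2B, P2RY12 and GP1BB, stood at -0.07, -0.05 and 0.01. Whether platelets had a part in the SLC6A4 difference was not tested. Of 8 tested genes listed under serotonin and monoamine handling, the others below 0 were SLC18A1 and ALDH5A1, the latter an enzyme of the GABA pathway. None of the 8 was called, and the median was 0.08.

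PTGFR, the receptor for prostaglandin F2-alpha, had the largest difference on the higher side without overlap. It read 5.29, 5.29 and 5.35 in control free wall and 5.17, 5.42 and 4.56 in control septum. In paced pigs PTGFR read 5.91, 5.77 and 6.58 in the free wall and 6.57, 6.01 and 6.86 in the septum. The gap between the groups was 0.35, and the difference was 1.1 (SE 0.19, limma adjusted p = 0.114), with 0.78 in the free wall and 1.43 in the septum. CCL26, a chemokine that attracts eosinophils, lay between 3.53 and 4.37 in control and between 3.06 and 3.34 in paced arrays (difference -0.67, SE 0.14). Its paced signals are near the lower quartile of the arrays.

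NPR3, the receptor that clears natriuretic peptides, ran from 8.1 to 8.98 in control arrays (median 8.62) and from 7.58 to 8.39 in paced arrays (median 8.0). These ranges overlap, and the difference was -0.59 (SE 0.17, limma adjusted p = 0.475). The peptides themselves, which heart muscle releases when stretched, showed no call. NPPA ran from 4.75 to 8.55 in control and from 5.31 to 7.66 in paced arrays, and its difference of -0.23 (SE 0.6) turned to 0.21 when control array 3 of the free wall was left out, and to 0.05 when paced array 3 of that region was. NPPB ran from 3.34 to 4.68 and from 3.37 to 4.21, with a difference of -0.28 (SE 0.23).

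Other genes often read as markers of load also lacked a call. Among 14 tested genes of haemodynamic stress and the fetal programme, 4 lay above 0 and 10 below, 1 did not overlap (0.63% of all genes), and the median was -0.16, against 0.002 over all genes. Leaving out array 3 of the control free wall, of the paced free wall or of the control septum gave medians of -0.05, -0.05 and -0.02. RCAN1, a target and regulator of calcineurin, stood at -0.74 (SE 0.28), and its lowest paced signal, 5.29, came from free wall paced array 2. MYL7, the atrial regulatory light chain, stood at 0.6 (SE 0.25), from 9.36 to 11.51 in control and from 10.68 to 11.56 in paced arrays. Without both control arrays numbered 1 RCAN1 stood at -0.38 and MYL7 at 0.29. MYH7 stood at -0.04 (SE 0.06), and ACTA1, skeletal alpha-actin, at -0.0 (SE 0.14).

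Of 19 tested genes of channels and gap junctions 1 was without overlap, against 0.63% of all genes. KCNIP2 encodes the subunit that, with the Kv4 channels, carries the transient outward potassium current of early repolarisation. It read 8.39, 8.63 and 8.56 in control free wall and 8.52, 8.66 and 8.63 in control septum. In paced pigs KCNIP2 read 8.19, 8.02 and 8.08 in the free wall and 8.28, 8.38 and 8.16 in the septum. The groups were 0.01 apart, the difference was -0.38 (SE 0.08, limma adjusted p = 0.206), and it was -0.43 in the free wall and -0.33 in the septum. KCNE1, a subunit of the slow delayed rectifier, stood at -0.3 (SE 0.11), and KCNH2, the channel of the rapid delayed rectifier, at -0.18 (SE 0.08). KCNA5, an atrial potassium channel, stood at 0.45 (SE 0.14), with 0.01 in the free wall and 0.89 in the septum. GJA1, the main gap junction protein of the ventricle, stood at -0.09 (SE 0.11). None of the 19 was called, 9 lay above 0 and 10 below, and the median was -0.0. Before adjustment 5 of the 19 were lower at a limma p under 0.05 and 1 was higher, against 3.82% and 3.27% of all genes.

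Among genes of muscle structure, XIRP2 was higher without overlap. Its protein binds actin at the intercalated disc, where heart muscle cells join. It read 7.01, 7.65 and 7.51 in control free wall and 7.77, 7.71 and 6.86 in control septum. In paced pigs XIRP2 read 7.92, 8.49 and 7.99 in the free wall and 7.79, 8.43 and 7.98 in the septum. The gap was 0.02, and the difference was 0.68 (SE 0.19, limma adjusted p = 0.473). Of 13 tested genes of the intercalated disc, XIRP2 was the only one without overlap, against 0.63% of all genes, none was called, and the median was 0.03. SGCA, the alpha-sarcoglycan of the dystrophin complex, ran from 5.55 to 5.97 in control and from 5.88 to 6.61 in paced arrays (difference 0.43, SE 0.09, adjusted p = 0.206). Beta-sarcoglycan, SGCB, stood at 0.13 (SE 0.09), and the median of 13 genes of mechanosensing and the dystrophin complex was 0.01. The 17 tested genes of the sarcomere and Z-disc, each read by its brightest probe set, lay within a narrow range around a median of 0.02. None was called and none was without overlap, against 0.63% of all genes without overlap. Among them CSRP3 stood at -0.14, but a dimmer probe set of CSRP3, outside these counts, stood at -0.68 (SE 0.19, limma adjusted p = 0.472).

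Genes that govern muscle mass lay mostly below 0. FBXO32, the ubiquitin ligase atrogin-1, which marks muscle protein for breakdown, ran from 9.31 to 9.98 in control arrays (median 9.58) and from 8.65 to 9.4 in paced arrays (median 9.07). The ranges overlap through free wall paced array 1 at 9.4, and the difference was -0.58 (SE 0.14, limma adjusted p = 0.329). FBXO40, a ligase of muscle that acts on insulin receptor substrate, stood at -0.18 (SE 0.08). Myostatin, MSTN, a secreted inhibitor of muscle growth, stood at 0.91 (SE 0.37), from 2.9 to 5.18 in control and from 4.01 to 6.1 in paced arrays. Of 13 tested genes of atrophy and protein turnover 10 lay below 0, none was called, and the median was -0.16, or -0.05 without both control arrays numbered 1. ASB2, a ubiquitin ligase subunit that targets filamins, was lower without overlap, from 7.97 to 8.13 in control and from 7.41 to 7.84 in paced arrays (difference -0.31, SE 0.09). EEF2K, the kinase that slows protein synthesis at elongation, ran from 6.2 to 6.78 and from 6.66 to 7.33 (difference 0.45, SE 0.09, adjusted p = 0.206).

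Several metabolic genes were without overlap, in both directions. PPARA, the nuclear receptor that switches on fatty acid oxidation, read 8.65, 8.32 and 8.46 in control free wall and 8.84, 8.28 and 8.34 in control septum. In paced pigs PPARA read 8.18, 7.42 and 8.24 in the free wall and 8.19, 8.18 and 7.91 in the septum. The gap was 0.04, the lowest array was free wall paced 2, and the difference was -0.46 (SE 0.16, limma adjusted p = 0.558). ACSL1, which activates fatty acids, stood at -0.21 (SE 0.07), and PDK4, which holds back glucose oxidation, at -0.48 (SE 0.26). HACD1, an enzyme of long-chain fatty acid synthesis in muscle, stood at 0.5 (SE 0.12). Of 17 tested genes of fatty acid uptake and oxidation 8 lay above 0 and 9 below, none was called, and the median was -0.01.

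GOT1 and SLC25A12, chosen after their values were seen, were 2 of the 37 genes that lay lower without overlap (0.37% of all genes). GOT1, the cytosolic aspartate aminotransferase, ran from 10.3 to 10.55 in control arrays (median 10.48) and from 10.04 to 10.27 in paced arrays (median 10.25), a difference of -0.25 (SE 0.07). SLC25A12, the aspartate-glutamate carrier, ran from 9.76 to 9.98 (median 9.84) and from 9.53 to 9.72 (median 9.63), a difference of -0.23 (SE 0.07). Both are bright genes with small differences, and neither passed (limma adjusted p = 0.487 and 0.53).

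SUCLA2 and OXCT1, of which the latter was chosen after its values were seen, were 2 of the 26 genes that lay higher without overlap (0.26% of all genes). SUCLA2, a subunit of the ATP-forming succinyl-CoA ligase of the Krebs cycle, ran from 9.89 to 10.14 in control arrays (median 9.99) and from 10.21 to 10.41 in paced arrays (median 10.32). The difference was 0.3 (SE 0.08, limma adjusted p = 0.384). OXCT1, which takes coenzyme A from succinyl-CoA to burn ketone bodies, ran from 10.39 to 10.63 in control and from 10.71 to 10.9 in paced arrays (difference 0.2, SE 0.07). The 9 tested genes of the respiratory chain and Krebs cycle had a median of -0.03 and no call.

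ALDH5A1, a mitochondrial enzyme at the end of the GABA pathway into succinate, read 8.01, 8.1 and 8.1 in control free wall and 8.24, 8.08 and 8.17 in control septum. In paced pigs ALDH5A1 read 6.7, 7.72 and 7.53 in the free wall and 7.54, 6.99 and 7.62 in the septum. The control arrays were close together and the paced arrays spread, with free wall paced 1 and septum paced 2 lowest, and the difference was -0.77 (SE 0.17, limma adjusted p = 0.228). EPHX2, the soluble epoxide hydrolase, which breaks down vasodilating lipid epoxides, read 6.92, 7.03 and 6.97 in control free wall and 7.11, 6.88 and 6.88 in control septum. In paced pigs EPHX2 read 6.66, 6.22 and 6.16 in the free wall and 6.2, 6.59 and 6.26 in the septum. The gap was 0.22, and the difference was -0.62 (SE 0.11, adjusted p = 0.119), nearly equal in the free wall (-0.63) and the septum (-0.61).

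ABCA1, which exports cholesterol from cells, ran from 6.09 to 6.61 in control arrays (median 6.32) and from 5.35 to 5.97 in paced arrays (median 5.8), a difference of -0.63 (SE 0.14, limma adjusted p = 0.246). ADH5, which reduces nitrosoglutathione and oxidises formaldehyde adducts, ran from 7.01 to 7.25 and from 6.65 to 6.78, a difference of -0.39 (SE 0.07, adjusted p = 0.133). SELENBP1, a selenium-binding protein with methanethiol oxidase activity, stood at -0.44 (SE 0.1), also without overlap. Glucose genes showed the same absence of calls: of 19 tested genes of glycolysis, glucose uptake and glycogen, 7 lay above 0 and 12 below, and the median was -0.06. Before adjustment 6 of these 19 were lower at a p under 0.05 and none was higher, against 3.82% and 3.27% of all genes. Their 4 smallest p-values belonged to ALDOC, an aldolase (-0.49, SE 0.14), GPI, glucose phosphate isomerase (-0.33, SE 0.11), SLC2A4, the insulin-responsive glucose transporter GLUT4 (-0.36, SE 0.15), and GYS1, muscle glycogen synthase (-0.31, SE 0.13). Without both control arrays numbered 1 SLC2A4 stood at -0.16 and GYS1 at -0.15, and the median of the list was -0.08.

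**Figure D3:**
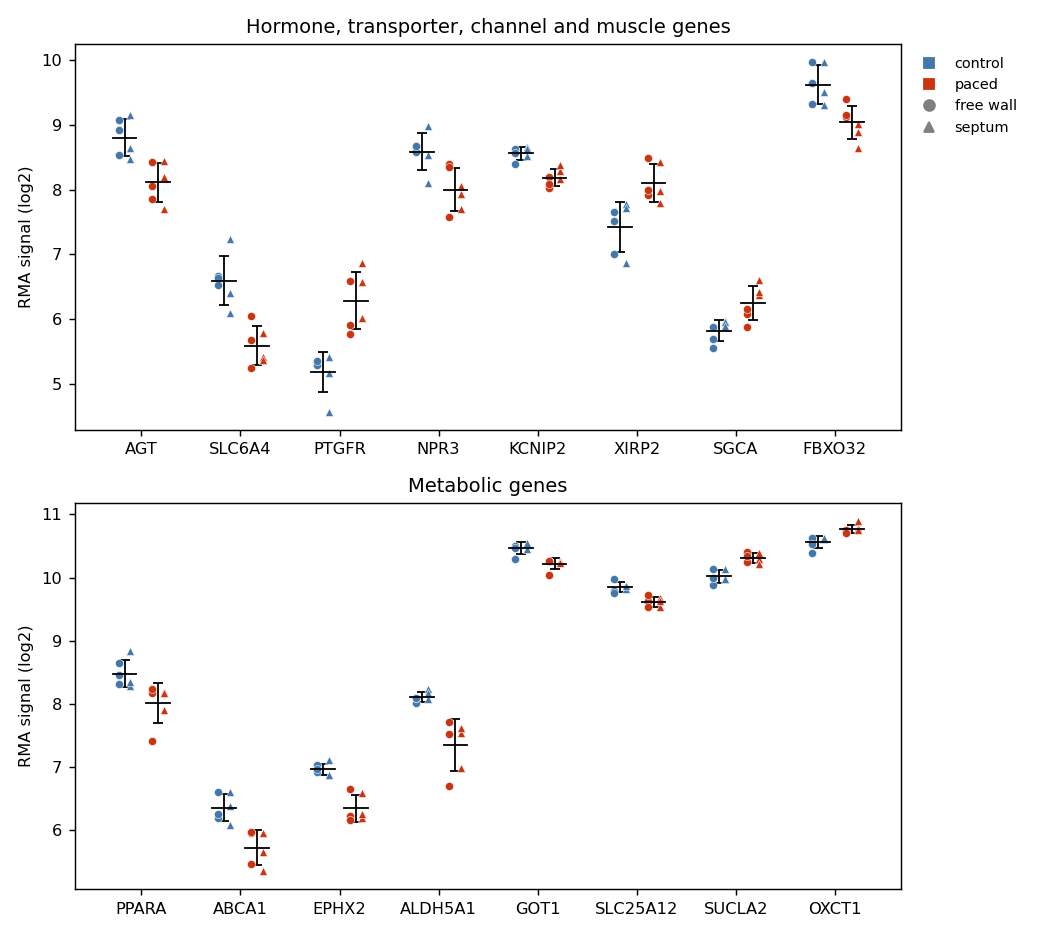
RMA signal (log2, vertical axes) of 16 genes of the text on each of the 12 arrays, with circles for free wall, triangles for septum, blue for control and red for paced, and bars for the mean and SD of the 6 arrays of a treatment. Of these genes NPR3, SGCA and FBXO32 overlap between treatments, and the other 13 do not. The widest gap, 0.35, is that of PTGFR.

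Genes of the circadian clock, the daily oscillator in which CLOCK and ARNTL drive the PER and CRY repressors, gave no call. Of 15 tested clock genes and clock outputs 5 lay above 0 and 10 below, 12 had the same sign in both regions, and the median was -0.14. None was without overlap, against 0.63% of all genes. NFIL3, a repressor of D-box genes, ran from 6.17 to 7.86 in control arrays (median 7.0) and from 5.47 to 6.54 in paced arrays (median 5.98), a difference of -1.03 (SE 0.32, limma adjusted p = 0.508). ARNTL, the partner of CLOCK, stood at -0.65 (SE 0.26), and CIPC, a repressor of CLOCK, at -0.44 (SE 0.15), with -0.78 in the free wall and -0.09 in the septum. PER2, a core repressor, stood at 0.52 (SE 0.21), and BHLHE41, a repressor of the same loop, at 0.52 (SE 0.22). Without both control arrays numbered 1 these differences were smaller, at -0.61 for NFIL3, -0.26 for ARNTL, -0.24 for CIPC, 0.26 for PER2 and 0.44 for BHLHE41.

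In control pigs the values of NFIL3 in the regions were close for arrays that share a number. They read 7.86 and 7.84 for number 1, 6.97 and 7.04 for number 2, and 6.19 and 6.17 for number 3. For NFIL3 in control pigs the spread between numbers was thus far larger than that between regions. In paced pigs the corresponding values of NFIL3 were 6.06 and 6.08, 5.47 and 5.89, and 6.54 and 5.87. ARNTL in control pigs read 5.61 and 5.48, 4.7 and 4.43, and 4.38 and 3.96 in the same order. Other clock genes varied in this. For control number 1 CLOCK read 9.09 and 9.01 but PER2 2.93 and 3.61, and for control number 3 BHLHE41 read 4.71 and 3.76. The control arrays numbered 1, which stood apart from the rest, thus held the highest NFIL3 and ARNTL signals. The labels give no time of day at which tissue was taken, and its part in these values was not tested.

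**Figure D4:**
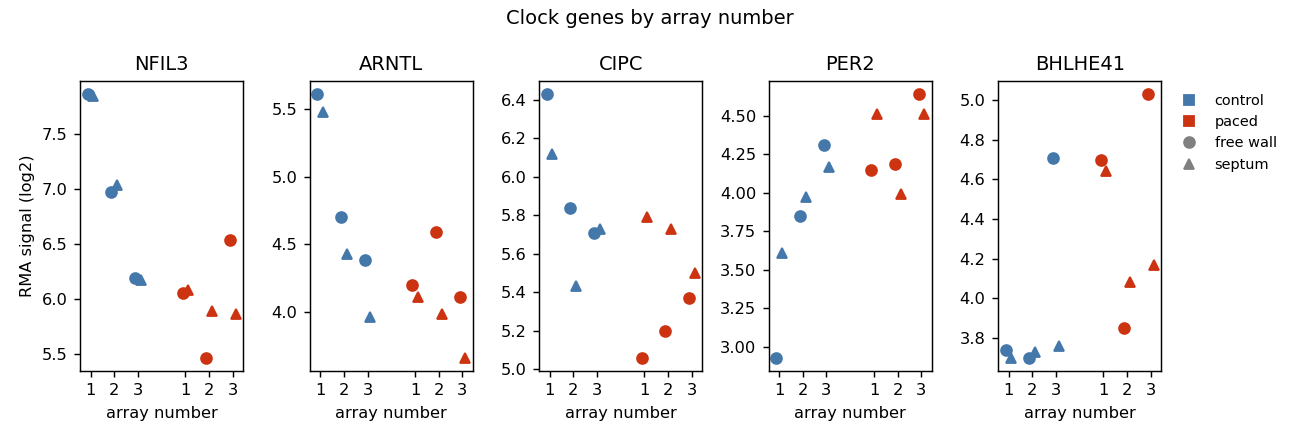
RMA signal (log2, vertical axes) of 5 clock genes by array number (horizontal axes), with circles for free wall, triangles for septum, blue for control and red for paced. The free wall and septum values of NFIL3 nearly coincide for each control number, at 7.86 and 7.84, 6.97 and 7.04, and 6.19 and 6.17, and control and paced arrays overlap in all 5 genes.

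Genes of the extracellular matrix lay mostly above 0, and this moved with the control arrays numbered 1. LUM, lumican, a proteoglycan of collagen fibrils, read 9.84, 10.98 and 10.84 in control free wall and 9.77, 10.85 and 10.2 in control septum. In paced pigs LUM read 11.19, 10.98 and 11.59 in the free wall and 11.18, 10.85 and 11.19 in the septum. The control arrays numbered 1 were the lowest of all, and the difference was 0.75 (SE 0.22, limma adjusted p = 0.487). COL3A1, a fibrillar collagen, read 6.03 and 6.02 on those arrays and between 7.26 and 8.0 on the other control arrays, against 7.28 to 7.79 in paced arrays. Its difference of 0.47 (SE 0.35) was -0.08 without both control arrays numbered 1, and that of LUM 0.45. COL1A1, the main fibrillar collagen, stood at 0.3 (SE 0.2), or 0.04 without them, and LOX, which cross-links collagen, at -0.41 (SE 0.18). Of 21 tested genes of collagens and matrix 15 lay above 0, none was called, and the median was 0.15, or -0.05 without both control arrays numbered 1. The 11 fibroblast markers had a median of 0.11 and the 8 of smooth muscle and pericytes 0.18, both without a call.

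Markers of macrophages lay mostly below 0. Of 13 tested, 2 lay above and 11 below, none was called, and the median was -0.1, with -0.31 in the free wall and 0.06 in the septum. MSR1, a scavenger receptor, had the smallest p (difference -0.52, SE 0.11, limma adjusted p = 0.228), with -0.89 in the free wall and -0.14 in the septum, and its paced arrays ran from 3.27 to 3.75 against 3.4 to 4.34 in control arrays. SPI1, a transcription factor of myeloid cells, stood at -0.28 (SE 0.11), and the complement gene C1QC at -0.37 (SE 0.14). Interferon-stimulated genes lay below 0 in 19 of 20 cases, but only 12 had the same sign in both regions. Their median was -0.15, or -0.43 without both control arrays numbered 1, none was called, and none had an unadjusted p under 0.05. CMPK2, a mitochondrial nucleotide kinase induced by interferon, had the smallest p of the 20, with a difference of -0.31 (SE 0.15). MX1 stood at -0.25 by its brightest probe set. A dimmer one, outside these counts, stood at -0.54 (SE 0.21, limma unadjusted p = 0.0258, adjusted p = 0.651).

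Markers of endocardium and lymphatic vessels had differences of opposite sign. FOXC2, a transcription factor of lymphatic valves, stood at -0.58 (SE 0.13, limma adjusted p = 0.246), and CCL21, a chemokine made by lymphatic endothelium, at 0.64 (SE 0.17, adjusted p = 0.374). FLT4, the receptor of lymphatic growth factors, stood at 0.26 (SE 0.13), and the median of 7 tested markers was -0.05. Markers of cardiomyocytes had a median of 0.01 over 8 genes, with no call. Over the 17 marker lists the medians ran from -0.1 to 0.18.

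Genes of axon guidance, which in the heart also steer vessels and nerves, lay above 0 in 15 of 19 cases, with a median of 0.15, or 0.09 without both control arrays numbered 1, and no call. ROBO2, a receptor for the SLIT guidance cues, was the only member without overlap, against 0.63% of all genes. It read 3.28, 3.9 and 3.74 in control free wall and 2.73, 3.71 and 3.56 in control septum. In paced pigs ROBO2 read 4.35, 3.95 and 4.79 in the free wall and 4.84, 5.07 and 4.42 in the septum. The gap was 0.05, and the difference was 1.08 (SE 0.2, limma adjusted p = 0.153), with 0.72 in the free wall and 1.44 in the septum. The semaphorins SEMA3C and SEMA3A, secreted guidance cues, stood at 0.21 (SE 0.09) and 0.3 (SE 0.15), and the ephrin EFNB2 at 0.2 (SE 0.1).

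In all, 42 lists of 720 genes were described, of which 449 genes were tested and 0 were called, against 0.02% of all genes. Over the 25 pathway lists the medians ran from -0.16 to 0.15, and 16 of them held no gene without overlap. Since only 0.63% of all genes were without overlap, a short list often holds none, and this count does not set these lists apart. The lists of calcium handling, heat shock and protein folding, immediate-early genes, hypoxia and angiogenesis, and TGF-beta and BMP signalling had medians of -0.02, 0.03, 0.05, 0.04 and 0.02. Those of cytosolic ribosomal proteins, glucocorticoid-responsive genes, matrix proteases and inhibitors, and natriuretic peptide and nitric oxide signalling had medians of 0.07, -0.04, 0.02 and -0.02. The list of proteases and inhibitors also counted HS3ST5, an enzyme that modifies heparan sulfate and is not a protease or an inhibitor. HS3ST5 was higher without overlap, from 5.37 to 5.91 in control and from 5.97 to 6.49 in paced arrays (difference 0.61, SE 0.12). No other member of that list was without overlap, against 0.63% of all genes. The 9 tested cell cycle genes had a median of -0.04, and CENPU, a protein of the centromere, stood at 1.27 (SE 0.3, limma adjusted p = 0.303), from 3.67 to 5.13 in control and from 4.81 to 6.08 in paced arrays.

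**Figure D5:**
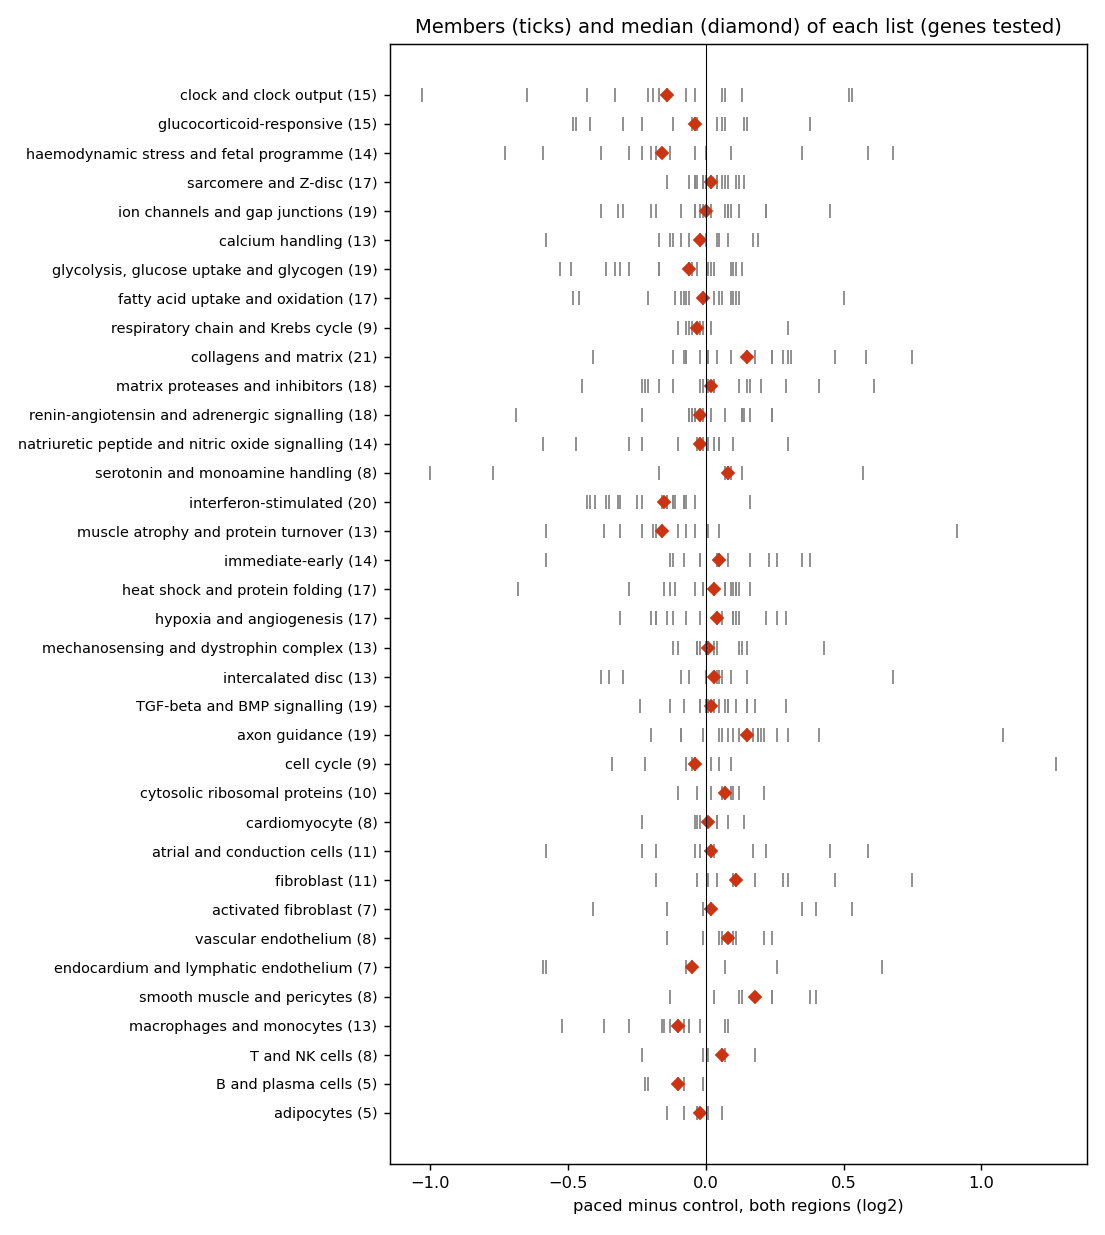
Paced minus control difference over both regions (log2, horizontal axis) of the tested members of each list with at least 5 tested genes, with a grey tick for each gene and a red diamond for the median of the list. All medians lie between -0.16 and 0.18, and no tick belongs to a called gene.

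Of the genes without overlap that belong to no list, the largest differences were on the lower side. XKRX, a membrane protein related to XK, read 5.59, 5.94 and 5.03 in control free wall and 6.0, 5.03 and 5.42 in control septum. In paced pigs XKRX read 4.32, 4.09 and 4.23 in the free wall and 3.14, 4.59 and 3.72 in the septum. The gap was 0.44, the widest described here among genes, and the difference was -1.49 (SE 0.25, limma adjusted p = 0.114). It passed without septum paced array 2 (adjusted p = 0.0377). RNF135, a ubiquitin ligase that activates the viral RNA sensor RIG-I, read 5.49, 6.03 and 5.7 in control free wall and 5.45, 6.14 and 5.27 in control septum. In paced pigs RNF135 read 3.22, 5.26 and 5.08 in the free wall and 4.68, 3.69 and 4.42 in the septum. The groups were 0.01 apart, with free wall paced 1 and septum paced 2 lowest, and the difference was -1.29 (SE 0.33, adjusted p = 0.36).

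NSMCE1, a subunit of the SMC5/6 complex of DNA repair, read 8.92, 8.84 and 8.74 in control free wall and 8.79, 8.82 and 8.76 in control septum. In paced pigs NSMCE1 read 7.81, 8.28 and 8.31 in the free wall and 8.4, 7.94 and 8.19 in the septum. The control arrays spanned less than the gap of 0.34, and free wall paced 1 and septum paced 2 were again lowest (difference -0.66, SE 0.11, limma adjusted p = 0.114). ENPP5, a membrane protein of the nucleotide pyrophosphatase family, was read by 3 probe sets with differences of -0.64, -0.76 and -0.68, of which the chosen one did not overlap between groups. ENC1, an actin-binding protein of neurons, stood at -0.6 (SE 0.15), also without overlap.

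On the higher side TBC1D19, of a family of proteins that switch off Rab GTPases, ran from 4.25 to 4.65 in control arrays (median 4.5) and from 4.84 to 5.45 in paced arrays (median 5.34). Its lowest paced signal came from free wall paced array 2, and its difference was 0.72 (SE 0.12, limma adjusted p = 0.114). It passed without that array (adjusted p = 0.0452) and when arrays were weighted by quality (adjusted p = 0.0184). TANC2, a scaffold protein of synapses, stood at 0.64 (SE 0.14). LGALS3, galectin-3, a lectin of macrophages and fibroblasts, ran from 3.72 to 3.96 in control and from 4.02 to 4.88 in paced arrays (difference 0.55, SE 0.14). RGSL1, the kinase MAST2, the annexin ANXA4, ALG10 of protein glycosylation, the cohesin subunit SMC1A, the mitochondrial GCAT of threonine breakdown and RGS10, which switches off G proteins, lay between 0.28 and 0.54, all without overlap. For GCAT the gap was 0.01, and another, slightly dimmer probe set did overlap, from 4.47 to 4.71 in control and from 4.56 to 5.42 in paced arrays.

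Some genes had large differences but overlapping arrays, and were chosen after their values were seen. NRSN1, a vesicle protein of neurons, had the largest difference of the genes named here, -1.54 (SE 0.26, limma adjusted p = 0.114), and overlapped because free wall paced array 3 read 5.14 while the lowest control arrays read 5.03 and 5.06. LONRF3, a ubiquitin ligase, stood at -1.09 (SE 0.25), and LRRC3B at 0.67 (SE 0.15). MYL1, a light chain of fast skeletal muscle, stood at 1.36 with an SE of 0.58, from 2.39 to 4.7 in control and from 2.67 to 6.66 in paced arrays. CLU, clusterin, a secreted chaperone, stood at -1.22 with an SE of 0.52, and FGF7, a growth factor of fibroblasts, at 1.11 with an SE of 0.84. For MYL1, CLU and FGF7 the arrays within each treatment were widely spread.

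The 63 genes without overlap could all be placed in the gene order of the RefSeq annotation of pig (assembly Sscrofa11.1). Of these, 13 formed 7 pairs within 10 tested genes of each other, and 6 of the 7 pairs shared a direction. How many pairs any other 63 tested genes would form was not counted, so these numbers do not show clustering. In 3 pairs no tested gene lay between the members. PTK2B, a calcium-responsive tyrosine kinase (-0.4), lay next to EPHX2 (-0.62), GRK5 (0.24) next to RGS10 (0.28), and DAZAP2 (-0.38) next to the uncharacterised LOC100155553 (-0.68). A further group held ALDH5A1 (-0.77), C7H6orf62 (-0.36) and RIPOR2 (-0.36), with KIAA0319 (-0.02), TDP2 (0.59), ACOT13 (-0.1) and GMNN (-0.02) between them. The pair of opposite direction was HS3ST2 (0.26) and PDZD9 (-1.04), with EEF2K (0.45) among the 4 tested genes between. NRSN1 (-1.54) lay on the other side of ALDH5A1, with MRS2 (-0.25) between. CSTF2 and TRMT2B, close to XKRX, stood at 0.14 and -0.05, and RHOT1, ADAP2, TEFM and ATAD5, close to RNF135, stood at -0.18, 0.03, -0.14 and -0.02.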

How the data were processed

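RNA from 12 left ventricular samples was hybridised to Affymetrix arrays. The deposited values are log2 signals which the authors computed by RMA (Affymetrix Expression Console 1.4), per the submitters' processing notes. RMA subtracts background, equalises the distributions of the arrays and summarises probes. The genome build is not given in the sources used here. The table held 27558 probe sets, of which 13323 had 1 gene symbol, 357 several and 13878 none in the platform annotation. RefSeq (Sscrofa11.1) updated 7 symbols and gave gene order. Probe sets with a mean log2 signal above the 25th percentile (3.00) were tested, 20667 in all. A gene was read by its brightest probe set, and 689 genes had several.

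The labels gave the region and the treatment of each sample. limma 3.58.1 in R 4.3.3 fitted 1 mean per group and moderated the variances, with 8 residual degrees of freedom and 3.68 from the prior, two-sided, and calls were made at a Benjamini-Hochberg adjusted p under 0.05. Precision is limited by the number of arrays. In simulated data of 20667 probe sets, this comparison recovered 95 of 100 planted differences of 1 and 100 of 100 of 2 on the log2 scale, with 9 false calls. The simulated arrays had independent normal noise and the same shift in every paced array. The real arrays may share pigs and some stood apart, so this recovery does not give the power in these data. Deviations of same-numbered free wall and septum arrays correlated in control but not in paced pigs, and the labels do not tie numbers to animals, so the fit has no block and treats arrays as replicates.

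The members and lists were chosen with earlier results of these data known. Named were all called probe sets, in each direction the 15 genes with the largest difference among those without overlap and with 1 sign in both regions (uncharacterised loci gave up their place), a fixed set of 14 genes, up to 4 members of each list described with the smallest p, and the tested RefSeq neighbours of XKRX and RNF135. Genes outside this rule, such as NRSN1, LONRF3, EEF2K, GOT1, SLC25A12, OXCT1, ADH5, ASB2, LRRC3B, CENPU, MYL1, CLU, FGF7, BHLHE41 and members of the neighbouring pairs, were chosen after their values were seen. Alternatives were the filter, centring, weights, prior, replicate block, averaged regions and leaving out arrays. Leaving out both control arrays numbered 1 was chosen after seeing the data. Figures were drawn with matplotlib 3.10.9.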

Additional observations from a re-analysis of the deposited data

Results flagged for a closer look

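In 226 groups of 6 arrays from 113 genes and probe sets of the text, 13 signals stood far from the other 5 by the gap between them and the next array (Dixon's criterion, 0.625 of the range). Chance flags about 1 in 20 groups. Free wall paced array 2 gave 3 of them, namely the lowest paced signals of RCAN1 (5.29) and MRPS31 (6.72) and the highest of probe set 15275608 (6.76). Free wall control array 3 gave the highest control signals of BHLHE41 (4.71, against 3.7 to 3.76 on the others) and ASB2 (8.13). Septum control array 1 gave the lowest control signals of SMC1A (7.05) and CSTF2 (4.28), and septum control array 3 that of PTGFR (4.56). For GOT1 the lowest signals of both treatments stood out, 10.3 on free wall control array 2 and 10.04 on free wall paced array 3. The others were the highest paced signals of ANXA4 (6.26, free wall paced array 1) and OXCT1 (10.9, septum paced array 2) and the lowest of TEFM (5.68, septum paced array 3).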

How the results depend on the processing

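The count of 4 called probe sets became 1 with the regions averaged, 12 with array weights and 2 to 6 when single arrays were left out. Leaving out free wall control 2 or 3, free wall paced 3, septum control 2 or septum paced 3 gave 2 calls, and leaving out free wall paced 1 or 2 gave 6. With the array number as a fixed replicate block 3 were called: CCK (adjusted p = 0.0712) and 15275608 (adjusted p = 0.139) were lost and probe set 15217667 was added. With a random block the same 4 were called as without (consensus correlation 0.031). Deviations of same-numbered arrays correlated at 0.32, 0.25 and 0.24 for the control and at 0.09, -0.17 and -0.18 for the paced numbers, so the numbers were not taken as pairs. Paced arrays of different numbers correlated at 0.42 (free wall 1, septum 2), 0.48 (free wall 2, septum 3) and 0.41 (free wall 3, septum 1). Whether such arrays share an animal is not given in the labels. If they do, the 6 arrays per treatment stand for 3 animals, and averaging or blocking by number would join tissue of different pigs. The fits with a block therefore cannot show whether the calls hold when arrays share animals. A fit with additive treatment and region lost CCK (adjusted p = 0.142), and a filter at the 50th percentile did not test PDZD9. The counts without overlap, 26 higher and 37 lower, became 43 and 57 after each region's mean was subtracted, 45 and 77 without both control arrays numbered 1, and 29 to 85 and 43 to 64 when single arrays were left out. Some small differences turned sign: NPPA 0.21 and 0.05 without free wall control 3 or paced 3 (-0.74 to 0.21 over all single arrays), ACTA1 0.0 after centring on the array median and -0.09 to 0.11 without single arrays, GJA1 0.04 and COL3A1 -0.08 without both control arrays numbered 1, ADAP2 -0.04 and -0.03 without free wall paced 1 or septum paced 2, and ATAD5 0.07 with array weights and -0.09 to 0.05 without single arrays. The cause was not tested. With array weights LRRC3B passed (adjusted p = 0.0444), and without septum paced 2 SYT14 did (adjusted p = 0.00666). Dim signals are limited by background.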
